A study of Mus musculus with 12 samples.

Results

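The enzymes that remove superoxide and hydrogen peroxide were followed as a family of 10 genes in the liver of newborn mice with and without the nuclear receptor PPARα. The family was chosen by gene name, with earlier results of these data known. It held the superoxide dismutases *Sod1* and *Sod2*, the copper chaperone *Ccs*, catalase (*Cat*), the glutathione peroxidases *Gpx1* and *Gpx4*, the peroxiredoxins *Prdx1*, *Prdx3* and *Prdx5*, and the thioredoxin reductase *Txnrd1*. Of these, 9 had a probe set that named them alone and were measured, out of 19938 genes read in all. *Prdx5*, a peroxiredoxin of several cell compartments, had none, so its expression was not analysed here.

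Superoxide is made mainly as a by-product of electron transport. Superoxide dismutases turn it into hydrogen peroxide, which catalase breaks down inside peroxisomes and which glutathione peroxidases and peroxiredoxins reduce in the cytosol and in mitochondria. Glutathione and thioredoxin pass on the electrons for that reduction and take them in the end from NADPH. PPARα is a transcription factor that, once bound by fatty acids or their derivatives, drives genes of fatty acid oxidation in mitochondria and peroxisomes, and several oxidases of these pathways give off hydrogen peroxide.

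Whole-liver RNA was measured on Affymetrix mouse gene arrays, 1 array per pup, in 12 suckling pups at postnatal day 2. The pups comprised 6 *Ppara*-/- animals, which lack PPARα in every cell, and 6 *Ppara*+/+ animals, each genotype with 3 males and 3 females, and none received an agent. Heterozygous parents were crossed so that both genotypes could be born and suckled together. The sample labels name the strain SV129, whereas the methods of the study name a C57BL/6 background. By the methods of the study, each genotype was drawn out of 3 litters, so some of its 6 pups shared a litter. No label ties a pup to its litter, litter could not enter the fit, and the p-values treat the pups as independent and may be too small for that reason. Because whole liver was used, fewer cells of a type and less RNA per cell cannot be told apart.

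Signals are given on the log2 scale of the authors' RMA summary (robust multi-array average), in which a difference of 1 is a doubling. Array medians lay between 7.16 and 7.20, and correlations between arrays between 0.989 and 0.996. Precision is limited by how many pups were hybridised. The targeted gene separated the genotypes: *Ppara* averaged 10.27 ± 0.05 in *Ppara*-/- livers and 11.16 ± 0.12 in *Ppara*+/+ livers (SD, n = 6 each), a log2 difference of -0.89. The Y-linked genes matched the labelled sex on 12 of 12 arrays. The 9 hepatocyte markers measured had a median signal difference of 0.02 between the genotypes, and the livers also held red-cell precursors, macrophages and granulocytes, whose markers are given further on.

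The family was followed because *Sod2* and *Ccs* bear on the question of how livers without PPARα handle oxidants after birth. Genotypes were compared by limma with sex as a term, and a gene was called at a Benjamini-Hochberg adjusted p under 0.05 over all probe sets. Of the 9 measured members, 0 were called lower in *Ppara*-/- livers and 0 were called higher, whereas over all genes 1.12% were called lower and 1.99% higher. By unadjusted limma p, 1 member, *Ccs*, was below 0.05 and lower in *Ppara*-/- livers, against 7.89% of all genes. The differences were small in both directions: 5 members had a positive difference and 4 a negative one. Their median was 0.03, against -0.01 over all genes. A log2 difference of at most 0.1 in size was found for 8 of 9 members and for 72.3% of all genes. The missing calls do not show that the transcripts are equal in the genotypes. The 95% intervals, which may be too narrow because litter is not in the fit, ran from 0.853-fold to 1.10-fold across the 9 members. All 9 intervals lay within 1.3-fold.

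**Figure D1:**
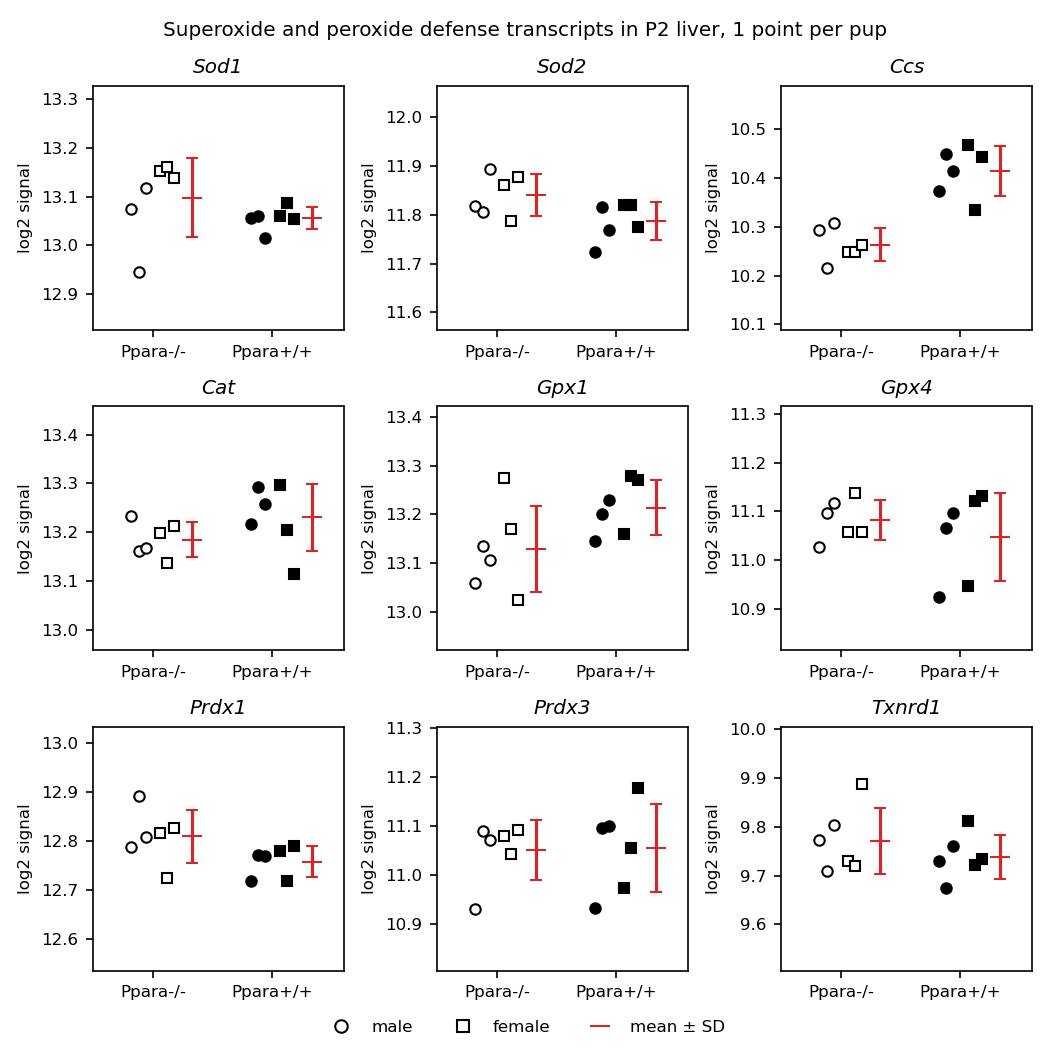
Log2 signal of the 9 measured transcripts in each of 12 livers at postnatal day 2, with 6 *Ppara*-/- pups (open symbols, left) and 6 *Ppara*+/+ pups (filled symbols, right) per panel, circles for males and squares for females, and the mean ± SD of each genotype in red. Every panel spans the same log2 range, and only in the *Ccs* panel do all *Ppara*-/- points lie below all *Ppara*+/+ points.

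The superoxide dismutases were read first. *Sod1* encodes the copper and zinc enzyme of the cytosol and of the space between the mitochondrial membranes. Its signal had a lowest value of 12.95, a median of 13.13 and a highest value of 13.16 in *Ppara*-/- livers, against 13.02, 13.06 and 13.09 in *Ppara*+/+ livers. The *Ppara*-/- values spread more widely than the *Ppara*+/+ values and enclosed them: 4 of the 6 *Ppara*-/- pups were above every *Ppara*+/+ pup, and 1, a male, was below them all. The 3 *Ppara*-/- females had the highest signals of the 12, at 13.14, 13.15 and 13.16. *Sod1* averaged 13.10 ± 0.08 in *Ppara*-/- livers and 13.06 ± 0.02 in *Ppara*+/+ livers (SD, n = 6 each). The difference was 0.04, with a 95% interval of -0.04 to 0.13 (limma adjusted p = 0.662).

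*Sod2* encodes the manganese enzyme of the mitochondrial matrix. In *Ppara*-/- livers its signal had a lowest value of 11.79, a median of 11.84 and a highest value of 11.89, and in *Ppara*+/+ livers 11.72, 11.80 and 11.82. The genotypes overlapped, although 3 *Ppara*-/- pups exceeded every *Ppara*+/+ pup and all 6 lay above the *Ppara*+/+ mean. The means were 11.84 ± 0.04 in *Ppara*-/- livers and 11.79 ± 0.04 in *Ppara*+/+ livers (SD, n = 6 each). The log2 difference of 0.05 had an SE of 0.03 and a 95% interval of -0.02 to 0.13, or 0.984-fold to 1.09-fold, and did not pass (limma adjusted p = 0.527). It was 0.07 in males and 0.04 in females.

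*Ccs* encodes the chaperone that hands copper to SOD1 and helps to form its disulfide bond. Its signal had a lowest value of 10.22, a median of 10.26 and a highest value of 10.31 in *Ppara*-/- livers, against 10.34, 10.43 and 10.47 in *Ppara*+/+ livers. All 6 *Ppara*-/- pups lay below all 6 *Ppara*+/+ pups, and the groups were 0.03 apart at their nearest. Over all genes, 1.43% had every *Ppara*-/- array below every *Ppara*+/+ array and 2.88% had every *Ppara*-/- array above. *Ccs* averaged 10.26 ± 0.03 in *Ppara*-/- livers and 10.41 ± 0.05 in *Ppara*+/+ livers (SD, n = 6 each). The log2 difference was -0.15 with an SE of 0.04, a ratio of 0.901 with a 95% interval of 0.853 to 0.951.

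The *Ccs* difference came close to the threshold without passing it (limma adjusted p = 0.0554). Whether it passed turned on the settings of the test. It passed in 7 of the 10 other settings with adjustment, with adjusted p between 0.0182 and 0.0383. It did not pass after median centring (adjusted p = 0.0671) or with a minimum change of 1.3-fold. With any 1 of the 12 arrays left out it did not pass either (adjusted p between 0.0558 and 0.13). The adjusted exact Mann-Whitney test (adjusted p = 0.0691) could not decide, because 0 probe sets on the array passed it. *Ccs* had the smallest p that this test can give, 0.002165, as has any gene whose groups do not overlap. The PPARα target *Cyp4a14*, with a far larger difference, had the same p. The log2 difference of *Ccs* moved little across all of these settings, from -0.17 to -0.14. It was -0.14 in males and -0.16 in females, and the interaction of genotype and sex had a difference of 0.02 with a 95% interval of -0.15 to 0.19.

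**Figure D2:**
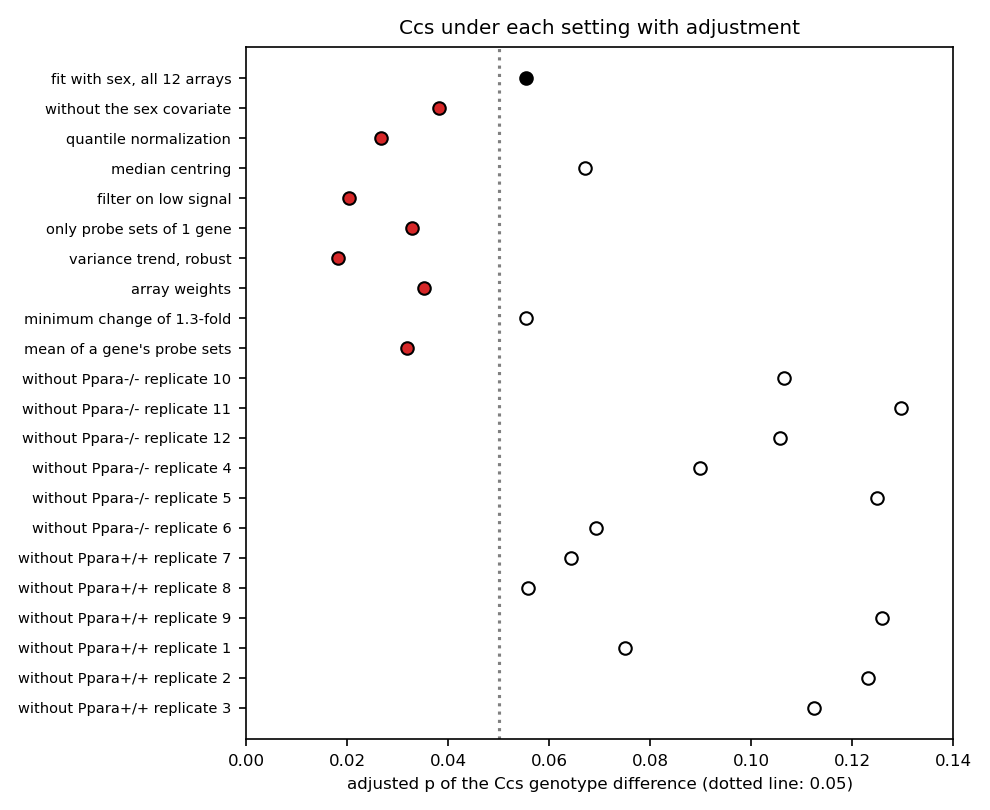
Benjamini-Hochberg adjusted p of the genotype difference of *Ccs* (x axis, linear) for the fit with sex on all arrays (black), for each other limma setting and with each array left out (y axis); red points pass the threshold of 0.05 (dotted line) and open points do not. The 7 passing settings lie between 0.0182 and 0.0383, and every fit with 1 array left out lies above the threshold.

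The genes whose pattern across the 12 arrays lay closest to *Ccs*, by the root mean square difference after each gene's own mean was removed, were *Mmadhc* at 0.0282, *Sfxn1* at 0.0354 and *Rab20* at 0.0396. *Mmadhc* takes part in the handling of vitamin B12, *Sfxn1* encodes a mitochondrial serine carrier, and *Rab20* encodes a small GTPase. *Mmadhc* had a difference of the same size, -0.15, which passed (limma adjusted p = 0.0484), while *Sfxn1* and *Rab20* did not pass (limma adjusted p = 0.192 and 0.0933). The genes closest to *Sod2* were *Bicd2*, *Dhx38* and *Dera*, at 0.0218, 0.0255 and 0.0257. None of these passed, and their differences of 0.04 to 0.05 were close to that of *Sod2*. The genes near *Ccs* and *Sod2* were picked on the same 12 values that hold the genotypes. A similar genotype difference therefore follows from the choice.

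Catalase and the glutathione peroxidases take up the hydrogen peroxide that the dismutases form. *Cat* encodes the peroxisomal enzyme that splits hydrogen peroxide without a donor of electrons. Its signal had a lowest value of 13.14, a median of 13.18 and a highest value of 13.23 in *Ppara*-/- livers, against 13.11, 13.24 and 13.30 in *Ppara*+/+ livers. Both the highest and the lowest pup were *Ppara*+/+, so the *Ppara*-/- range lay inside that of *Ppara*+/+. The difference was -0.05 with a 95% interval of -0.13 to 0.04 (limma adjusted p = 0.655).

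*Gpx1* encodes the selenoenzyme that reduces hydrogen peroxide with glutathione in the cytosol and mitochondria. Its lowest, median and highest signals were 13.03, 13.12 and 13.27 in *Ppara*-/- livers and 13.14, 13.22 and 13.28 in *Ppara*+/+ livers. Here 4 *Ppara*-/- pups were below every *Ppara*+/+ pup, but 1 *Ppara*-/- female was almost as high as the highest *Ppara*+/+ female. The difference was -0.09, the largest of the family after *Ccs*, with a 95% interval of -0.19 to 0.02, and it did not pass (limma adjusted p = 0.421). It was alike in the sexes, at -0.09 in males and -0.08 in females.

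*Gpx4* encodes the selenoenzyme that reduces lipid peroxides within membranes. Its lowest, median and highest signals were 11.03, 11.08 and 11.14 in *Ppara*-/- livers and 10.92, 11.08 and 11.13 in *Ppara*+/+ livers. The medians coincided, and the wider spread in *Ppara*+/+ livers came from a male and a female that were lower than all other pups. The difference was 0.03 with a 95% interval of -0.07 to 0.14 (limma adjusted p = 0.791), and a second probe set for the gene had a difference of 0.01.

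The peroxiredoxins reduce peroxides through a reactive cysteine. *Prdx1* encodes the main cytosolic form. Its lowest, median and highest signals were 12.72, 12.81 and 12.89 in *Ppara*-/- livers and 12.72, 12.77 and 12.79 in *Ppara*+/+ livers. Of the *Ppara*-/- pups, 4 exceeded every *Ppara*+/+ pup, but 1 female lay at the low end of the *Ppara*+/+ range. The difference was 0.05 with a 95% interval of -0.03 to 0.13 (limma adjusted p = 0.563), and a second probe set gave 0.04. The exact two-sided Mann-Whitney test gave p = 0.0411 before and 0.297 after adjustment.

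*Prdx3* encodes the mitochondrial form. Its lowest, median and highest signals were 10.93, 11.08 and 11.09 in *Ppara*-/- livers and 10.93, 11.07 and 11.18 in *Ppara*+/+ livers. In *Ppara*-/- livers 5 pups lay within 0.05 of each other and 1 male was lower, whereas the *Ppara*+/+ pups were spread over a wider range. The difference was -0.005 with a 95% interval of -0.11 to 0.10 (limma adjusted p = 0.979), the smallest in size of the family. The 2 *Ppara*+/+ pups with the lowest *Prdx3* signals, a male and a female, were also those with the lowest *Gpx4* signals.

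*Txnrd1* encodes the cytosolic selenoenzyme that restores thioredoxin with NADPH and so supplies the peroxiredoxins. Its lowest, median and highest signals were 9.71, 9.75 and 9.89 in *Ppara*-/- livers and 9.67, 9.73 and 9.81 in *Ppara*+/+ livers. The ranges overlapped over most of their length, and a single *Ppara*-/- female was above all other pups. The difference was 0.03 with a 95% interval of -0.06 to 0.12 (limma adjusted p = 0.776).

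**Figure D3:**
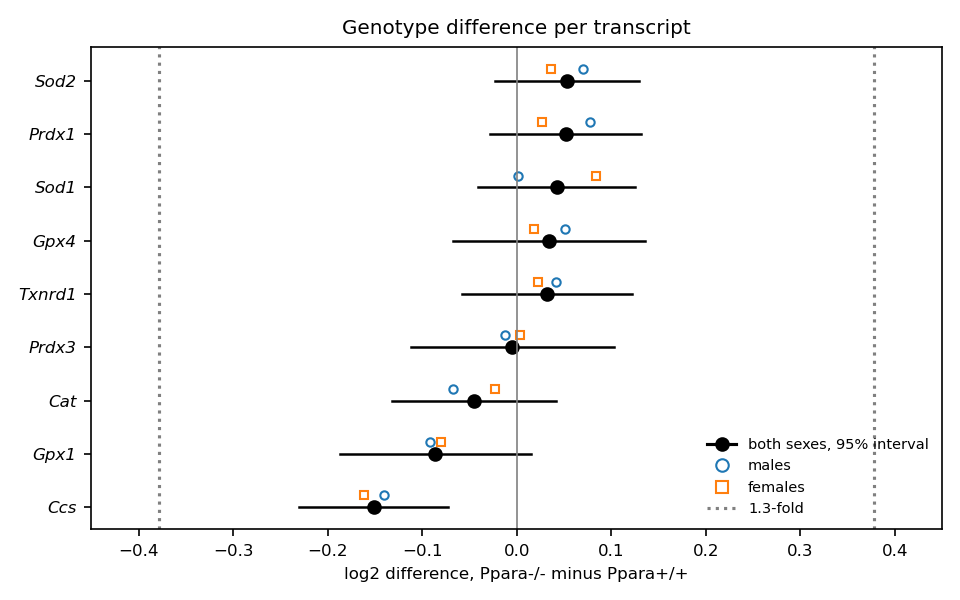
Log2 difference, *Ppara*-/- minus *Ppara*+/+, of the 9 transcripts in order of size (x axis), with the 95% interval of the limma fit (black) and the differences within males (blue circles) and within females (orange squares), n = 6 pups per genotype and 3 per sex. All intervals lie inside the dotted lines at 1.3-fold, and the interval of *Ccs* is the one that does not reach 0.

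The sexes were compared next. The interaction of genotype and sex was called for 0 members and for 0 probe sets on the array, of which 1004 had an unadjusted limma p under 0.05. The smallest unadjusted interaction p among the members was 0.306, for *Sod1*, whose difference was 0.002 in males and 0.08 in females. A difference between the sexes themselves was called for 0 members by limma. The male-minus-female differences ran from -0.06 for *Sod1* to 0.03 for *Cat*. With 3 pups per genotype and sex, the intervals of the interaction were wide, for *Sod1* -0.25 to 0.09.

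The promoters of the family were read for the elements that bind PPARα and NRF2, the transcription factor of the oxidant response. RefSeq promoter windows (build GRCm38.p6, 250 bases before to 50 after each start) were read for *Sod1*, *Sod2*, *Cat*, *Gpx1*, *Gpx4*, *Prdx1*, *Prdx3*, *Prdx5* and *Txnrd1*, with 14 promoters among them, and the *Ccs* promoter was not analysed here. The PPARα element was searched as 2 copies of AGGTCA in the same direction, 1 base apart, with up to 2 mismatches in the 12 bases. The core of the antioxidant response element was searched as TGACNNNGC, and both were searched on either strand. The first was found in 2 of the 14 promoters and in 3.9% of 32851 promoters in all, and the second in 3 of the 14 and in 12.4% of all promoters. The matches are shown because they place the members beside both factors, with the matched letters in capitals and each sequence written 5′ to 3′ on the gene's strand. The antioxidant element matches read as the core on the opposite strand.
Cat, chr2:103485331-103485371, minus strand, direct repeat: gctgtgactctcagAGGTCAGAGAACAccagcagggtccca
Prdx3, chr19:60874702-60874742, minus strand, direct repeat: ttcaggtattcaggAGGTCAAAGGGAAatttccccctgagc
Sod1, chr16:90220692-90220728, plus strand, antioxidant element core: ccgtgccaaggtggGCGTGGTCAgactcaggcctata
Prdx1, chr4:116685452-116685488, plus strand, antioxidant element core: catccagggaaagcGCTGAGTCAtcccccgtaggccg
Txnrd1, second promoter, chr10:82859100-82859136, plus strand, antioxidant element core: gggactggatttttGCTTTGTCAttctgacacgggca

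Each direct repeat holds 1 intact copy of AGGTCA, and its 2 mismatches lie in the second copy. The matches begin 204 bases before the start in *Cat* and 190 in *Prdx3*, and 56 bases before it in *Sod1*, 133 in *Prdx1* and 92 in the second promoter of *Txnrd1*. The windows of *Sod2*, *Gpx1*, *Gpx4* and *Prdx5* held neither set of letters. None of the 5 genes with a match was called. *Cat* and *Prdx3*, with a direct repeat, had log2 differences of -0.05 and -0.005, and *Sod1*, *Prdx1* and *Txnrd1*, with the antioxidant core, had 0.04, 0.05 and 0.03. A match of letters describes the sequence and is not a bound site.

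Known targets of PPARα were read in the same arrays for comparison. Of 13 measured targets, 10 were called lower in *Ppara*-/- livers and 1, *Acot1*, was called higher, against 1.12% lower and 1.99% higher over all genes. *Cyp4a14*, a fatty acid hydroxylase, averaged 10.41 ± 0.10 in *Ppara*-/- livers and 13.07 ± 0.06 in *Ppara*+/+ livers (SD, n = 6 each), a difference of -2.65. *Vnn1*, a pantetheinase, and the hydroxylase *Cyp4a10* had differences of -2.94 and -2.35. The smallest fall among the called targets was the -0.51 of *Fabp1*. The 2 targets that were not called, *Cpt1a* and *Plin2*, had differences of 0.07 and 0.12. Within the defense family the largest difference in size was the -0.15 of *Ccs*.

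The genes around the family were counted in 11 lists covering other peroxidases, thioredoxin partners, glutathione, copper, manganese and iron, selenium, NADPH, NRF2, oxidases, NADPH oxidases and peroxisomal import. Of 134 measured genes, 3 were called lower, or 2.24%, and 1 was called higher, or 0.746%, against 1.12% lower and 1.99% higher over all genes. Their median difference was 0.01. The counts changed with single arrays: with 1 array left out, 1 to 4 were called lower and 1 to 11 higher. Over all genes, the shares in these fits ran from 0.808% to 1.75% lower and from 1.3% to 3.6% higher. *Hao1* on the lower side and *Aldh1l1* on the higher side were called in all 12 fits. The 11 were called without *Ppara*+/+ replicate 7, a female, where 3.6% of all genes were called higher.

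**Figure D4:**
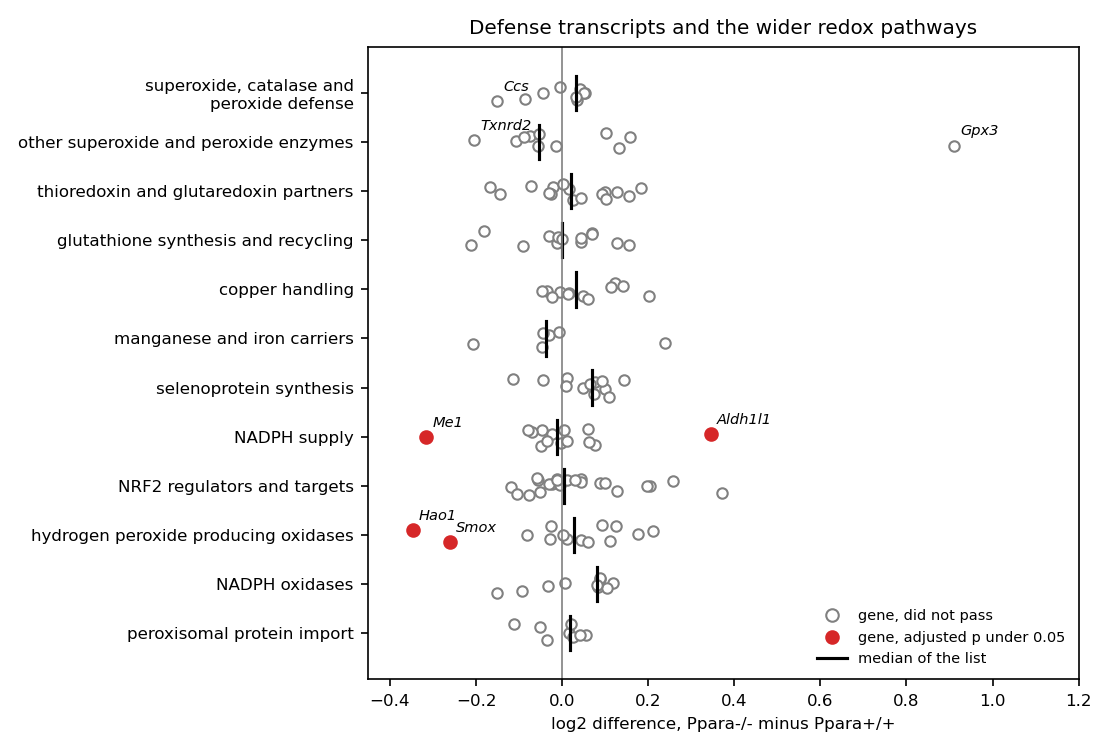
Log2 difference, *Ppara*-/- minus *Ppara*+/+, of each measured gene in the defense family and in 11 redox lists (rows), with the median of each list as a black bar; red points passed at an adjusted p under 0.05 and open points did not. *Me1*, *Hao1* and *Smox* passed on the lower side and *Aldh1l1* on the higher side, and *Gpx3* lies farthest to the right at 0.91 without passing.

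Enzymes that make hydrogen peroxide held 2 of the called genes, both lower, out of 14 measured, where 1.12% of all genes were called lower. *Hao1*, the peroxisomal glycolate oxidase, had lowest, median and highest signals of 11.08, 11.18 and 11.25 in *Ppara*-/- livers and 11.41, 11.52 and 11.65 in *Ppara*+/+ livers. Its groups did not overlap, the difference was -0.35, and it passed (limma adjusted p = 0.00192) also with each array left out. *Smox*, the spermine oxidase, had 10.72, 10.85 and 10.98 in *Ppara*-/- livers and 10.95, 11.13 and 11.25 in *Ppara*+/+ livers, which overlapped slightly, a difference of -0.26 (limma adjusted p = 0.0408). With 1 array left out, *Smox* passed in 2 of 12 fits. The other 12 did not pass, among them the urate oxidase *Uox* at -0.08 and the xanthine dehydrogenase *Xdh* at 0.09. By unadjusted limma p, 6 of the 14 were below 0.05, where 7.89% of all genes were below it and lower and 9.27% higher. Besides *Hao1* and *Smox* they were *Ddo* (0.21), *Pipox* (0.18), *Ero1a* (0.12) and *Acox2* (0.11), all higher in *Ppara*-/- livers. Of the whole list, 9 genes had a positive difference and 5 a negative one, with a median of 0.03.

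The supply of NADPH held the other called genes, 1 lower and 1 higher of 14 measured, beside the same 1.12% lower and 1.99% higher over all genes. *Me1*, the cytosolic malic enzyme, had lowest, median and highest signals of 8.04, 8.18 and 8.34 in *Ppara*-/- livers and 8.34, 8.52 and 8.68 in *Ppara*+/+ livers, groups that met without overlapping. Its difference was -0.32 (limma adjusted p = 0.0356), and it passed in 3 of 12 fits with 1 array left out. *Aldh1l1*, a folate enzyme that forms NADPH, had 11.95, 12.02 and 12.05 in *Ppara*-/- livers and 11.48, 11.68 and 11.80 in *Ppara*+/+ livers, a difference of 0.35 (limma adjusted p = 0.00372) that also passed with each array left out. *Nnt*, the mitochondrial transhydrogenase that feeds NADPH to the matrix enzymes, had a difference of -0.02 with a 95% interval of -0.11 to 0.06.

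None of the close relatives of the family passed, with 0 of 11 other superoxide and peroxide enzymes called in either direction by limma and 2 below an unadjusted p of 0.05, *Gpx3* and *Txnrd2*. *Gpx3*, the secreted glutathione peroxidase, averaged 9.15 ± 0.63 in *Ppara*-/- livers and 8.24 ± 0.27 in *Ppara*+/+ livers (SD, n = 6 each). All *Ppara*-/- pups were above all *Ppara*+/+ pups, with 1 *Ppara*-/- female far above the rest at 10.31, and the difference of 0.91 had a 95% interval of 0.41 to 1.41 (limma adjusted p = 0.0656). It passed when that female, *Ppara*-/- replicate 11, was left out, and likewise when *Ppara*+/+ replicate 1 was. *Txnrd2*, the mitochondrial thioredoxin reductase, averaged 9.26 ± 0.09 in *Ppara*-/- livers and 9.47 ± 0.06 in *Ppara*+/+ livers (SD, n = 6 each), a difference of -0.20 (limma adjusted p = 0.06) that passed when either *Ppara*-/- replicate 10 or *Ppara*+/+ replicate 7 was left out.

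In the thioredoxin and glutaredoxin list 0 of 16 genes passed and the median difference was 0.02. The cytosolic thioredoxin *Txn1* had a difference of 0.03 and the mitochondrial thioredoxin *Txn2* one of 0.16 (limma adjusted p = 0.0784). For *Txn2*, all 6 *Ppara*-/- pups lay above all *Ppara*+/+ pups, as was so for 2.88% of all genes. The glutathione list held 0 called genes of 13. *Gclc* and *Gclm*, the subunits of the enzyme that limits glutathione synthesis, had differences of -0.01 and -0.03, and the reductase *Gsr* 0.04. In the list of NRF2 regulators and targets 0 of 22 passed. *Nfe2l2*, which encodes NRF2, had a difference of 0.09 (limma adjusted p = 0.272), and its targets *Nqo1* and *Hmox1* differed by -0.10 and 0.10. By unadjusted limma p, 5 of the 22 were below 0.05, all higher in *Ppara*-/- livers, against 9.27% of all genes. Besides *Nfe2l2* they were *Gstm3* (0.37), *Gstm1* (0.26), *Gsta3* (0.21) and *Gsta4* (0.20). Of the whole list, 11 genes had a positive difference and 11 a negative one.

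Metal supply was read because *Ccs* and SOD1 need copper, SOD2 manganese, and the glutathione peroxidases and thioredoxin reductases selenium. Of 12 copper genes 0 passed. *Atox1*, the chaperone that serves the copper pumps, had a difference of -0.004 with a 95% interval of -0.09 to 0.09, the importer *Slc31a1* one of 0.12 and the copper pump *Atp7b* 0.14. Of 6 manganese and iron carriers 0 passed, with *Slc39a14*, an importer of both metals, at 0.24 (limma adjusted p = 0.176). Of 12 genes of selenoprotein synthesis 0 passed, and *Selenop*, the selenium carrier of plasma, had a difference of 0.07. Superoxide can also be made on purpose by NADPH oxidases, of whose 10 measured genes 0 passed, with a median difference of 0.08 and *Cyba*, the shared membrane subunit, at 0.12 (limma adjusted p = 0.182). Of 8 genes for the import of enzymes such as catalase into peroxisomes 0 passed, and the receptor *Pex5* had a difference of 0.02. *Pex14* had the lowest difference of that list, -0.11 (limma adjusted p = 0.154), while 5 of the 8 had a positive difference and 3 a negative one.

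Markers of other cell types in the liver were read beside the family. All 13 measured erythroid markers had a negative difference, with a median of -0.19, and their mean signal lay between 11.08 and 11.45 in *Ppara*-/- livers and between 11.18 and 11.56 in *Ppara*+/+ livers. All 13 markers of Kupffer cells, the macrophages of the liver, had a positive difference, with a median of 0.20, at a mean signal of 9.95 to 10.09 in *Ppara*-/- livers and 9.66 to 10.08 in *Ppara*+/+ livers. In either list 0 genes were called by limma, while 10 erythroid and 9 Kupffer cell markers were below an unadjusted p of 0.05. Over all genes, 7.89% were below it and lower and 9.27% were below it and higher. Liver endothelium, stellate cell and granulocyte markers had medians of 0.13, 0.10 and 0.08. The difference was positive for 12 of 12, 8 of 10 and 11 of 12 of them. Of these lists 0 genes were called, while 7, 3 and 6 were below an unadjusted limma p of 0.05. The 9 pancreatic acinar genes had a median of 0.72, with 0 below that unadjusted p. Their mean signal was 6.71 to 9.16 in *Ppara*-/- livers and 6.62 to 8.00 in *Ppara*+/+ livers. Red cells also hold several of the defense enzymes, among them those of *Cat*, *Gpx1*, *Sod1* and *Prdx1*, with differences of -0.05, -0.09, 0.04 and 0.05, and of the related *Prdx2*, with -0.07. Lymphocyte markers had a median of -0.14, cholangiocyte markers 0.07 and megakaryocyte markers 0.05. The part of these cells in the values of the family was not tested.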

How the data were processed

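Liver RNA of 12 pups was hybridised to Affymetrix mouse gene arrays. The log2 values deposited by the authors are RMA signals per probe set, normalized across arrays; an RMA version and a genome build are not given in the sources used here. They were used as deposited. Of 35556 probe sets, 21789 name 1 gene, 1621 several and 12146 none here. Each gene was represented by its brightest probe set on average, among those that name it alone.

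Linear models of genotype and sex were fitted per probe set with limma 3.58.1 under R 4.3.3 (lmFit and eBayes) and p-values were adjusted by Benjamini-Hochberg over all probe sets. A fit of 4 groups gave the interaction and the differences within each sex. Besides 12 fits with 1 array left out, 12 other settings were tried, 1 of them added after seeing the data. The calculation was tested on simulated data. Motifs were searched in RefSeq promoters.

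The members and lists were chosen with earlier results of these data known. Genes named were all members, *Ppara*, up to 3 called genes of a list per direction, and the 3 genes closest in pattern to *Sod2* and to *Ccs*. Other uncalled list genes were named after their values were seen.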

Additional observations from a re-analysis of the deposited data

Results flagged for a closer look

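In 36 groups of 6 arrays tested for a value standing apart, 2 such values were found, where chance gives about 1 in 20 groups, or 1.8. *Prdx3* was 10.93 in *Ppara*-/- replicate 4, a male, while the other *Ppara*-/- livers lay between 11.04 and 11.09. *Acot1* was 6.76 in *Ppara*+/+ replicate 9, a female, while the other *Ppara*+/+ livers lay between 6.96 and 7.06.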

How the results depend on the processing

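*Ccs* passed with a log2 difference of -0.15 without the sex covariate, with a filter on low signal, over probe sets of 1 gene alone, with a robust variance trend, with probe sets averaged per gene, by unadjusted limma p and by the unadjusted exact Mann-Whitney test, the last chosen after seeing the data. It also passed with quantile normalization (-0.16) and with array weights (-0.15). Under each of these 1 member was called lower. The unadjusted Mann-Whitney test also called 1 member higher, *Prdx1* (0.05, exact p = 0.0411). The other 7 members were not called under any alternative. The difference of *Sod2* stayed between 0.04 and 0.07, with adjusted p between 0.373 and 0.687.

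With 1 array left out, 0 members were called in any of 12 fits, and between 1 and 4 genes of the wider lists were called lower and between 1 and 11 higher. *Hao1* and *Aldh1l1* were called in all of them. The 11 called without *Ppara*+/+ replicate 7 included *Slc31a1*, *Atp7b*, *Sesn3* and *Gstm3*, and the cause was not tested. Leaving out *Ppara*-/- replicate 4, 5, 6 or 11, or else replicate 1, 3, 8 or 9 of *Ppara*+/+, gave a lower count of 1, *Hao1*. Leaving out *Ppara*-/- replicate 11 or replicate 1 of *Ppara*+/+ added *Gpx3* to the higher side, a count of 2. By limma 0 members passed in either direction, 1 at an unadjusted p under 0.05. The 12 arrays set the precision, with SEs of the 9 members between 0.03 and 0.05. No paired analysis was possible because no label ties a pup to its litter.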
